A study of Mus musculus with 8 samples.

Results

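Interferons are secreted antiviral proteins that act through receptor chains on the cell surface, and 9 genes of this pathway were followed in bone marrow mesenchymal stem/progenitor cells (MSPCs). These were the receptor genes Ifnar1, Ifnar2, Ifngr1 and Ifngr2, the signal transducer Stat2, and the interferon regulatory factors Irf1, Irf3, Irf7 and Irf9. They were taken from the table of 52636 genes by matching Ensembl identifiers to these symbols. All 9 were found, and all 9 had counts above 0 in every library. MSPCs were sorted from 4 CTR mice (Flk2-cre+ Cxcr4fl/+) and 4 cKO mice (Flk2-cre+ Cxcr4fl/fl), all C57BL/6 and aged 6 weeks by the labels, while the methods give an older range for mice of the study. Both genotypes carry the Flk2-cre transgene, at least 1 floxed Cxcr4 allele and GFP at the Kitl locus, whose product is SCF. Flk2-cre acts in hematopoietic multipotent progenitors and their progeny, so that Cxcr4 was not deleted in the MSPCs themselves, and CTR mice are heterozygous for the deletion in the same cells. The sorted cells were PDGFRα+ and GFP+ and lacked CD45, Ter119, CD31 and CD144, and RNA was selected by its poly(A) tail.

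In the mouse, type I interferons bind a receptor made of the IFNAR1 and IFNAR2 chains, and interferon gamma binds a receptor made of IFNGR1 and IFNGR2. JAK family kinases attached to these chains phosphorylate STAT proteins. STAT2 and IRF9 are subunits of the complex ISGF3, which binds interferon-stimulated response elements (ISRE), and STAT dimers bind gamma-activated sites (GAS). IRF3 is made constitutively and is activated by sensors of viral nucleic acid, whereas Irf1, Irf7, Irf9 and Stat2 are themselves interferon-inducible genes. In bone marrow, MSPCs are the perivascular cells that produce CXCL12 and SCF for hematopoietic stem cells. The members were therefore read as 4 receptors, the constitutive factor Irf3 and 4 induced factors (Stat2, Irf9, Irf7 and Irf1).

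The 8 libraries held between 31047344 and 38216877 counts, with 18366 to 20684 genes at a count above 0. MSPC markers (Pdgfra, Lepr, Cxcl12, Kitl, Ebf3, Foxc1, Pdgfrb and Vcam1) summed to between 53116 and 63804 CPM (counts per 1e+06 counts) in CTR and between 53242 and 64528 CPM in cKO libraries. The summed level of 17 leukocyte markers was 30.5 to 91.1 CPM in CTR and 53.4 to 95.9 CPM in cKO, with Cd3e listed at 0 throughout and Ptprc, which encodes CD45, at 0 to 32 counts. All 5 leukocyte markers with counts in every library had higher means in cKO, with a median log2 difference of 0.43. The 6 erythroid markers summed to 59.7 to 166 CPM in CTR and 122 to 236 CPM in cKO, and 6 of 6 had higher means in cKO (median 0.52). None of these 11 genes had an unadjusted p-value under 0.05 in edgeR. Endothelial markers summed to at most 5.58 CPM in any library, with Tek listed at 0 throughout. What part these low levels of other cells' RNA have in the differences below was not tested, and in bulk RNA a change in the number of cells of a type and a change in RNA per cell cannot be told apart. Sample titles carry a number that the labels do not explain. Replicates 2 and 4 of both genotypes carry numbers from 26 to 32, and replicates 1 and 3 of both carry numbers from 67 to 86.

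The type I and gamma receptor genes other than Ifngr1 lie together on chromosome 16 of GRCm38, all on the plus strand and within 192841 bases. In order these are Ifnar2 (91372783 to 91405589), Il10rb, Ifnar1 (91485238 to 91507441) and Ifngr2 (91547072 to 91565623). Il10rb encodes a chain shared by the receptors for interleukin 10 and interferon lambda. Ifngr1 (19591949 to 19610229) and Stat2 (128270559 to 128292849) are both on chromosome 10. Irf3 (44997648 to 45002848) and Irf7 (141262706 to 141266481, minus strand) are on chromosome 7, Irf1 (53770014 to 53778374) is on chromosome 11 and Irf9 (55603571 to 55610030) is on chromosome 14. Exons of other genes overlapped 9.46% of the exon bases of Ifnar2, all of them from the predicted gene Gm21970 on the same strand. For Irf1, Irf3, Irf7 and Irf9 the overlap was 1.19% to 3.40%, and 0 exon bases of Ifnar1, Ifngr1, Ifngr2 or Stat2 overlapped another gene. Whether strand was used in the counting is not given in the sources used here.

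Windows around the transcription starts of all 9 genes were found in RefSeq (GRCm38.p6), 11 windows in all, each covering 250 bases before and 50 bases after a start. They were searched for 2 short patterns. The GAS-like pattern TTCNNNGAA reads the same on both strands, and the ISRE-like pattern, GAAA and GAAA again after 2 bases of any kind, was searched on both strands. The 2 patterns share no match here. A GAS-like match was in 3 of the 11 windows and in 8.30% of all 32851 RefSeq windows of this length. It began 90 bases before the Irf1 start (TTCCCCGAA) and 214 bases before the Ifnar2 start (TTCCTGGAA). In Ifnar1 it began 5 bases from the start (TTCACGGAA), on a side that was not recorded. An ISRE-like match was in the Stat2 window alone, 222 bases before its start (TTTCAGTTTC on the plus strand), and in 3.44% of all windows. A match of letters does not show binding, and a window without one says nothing about elements elsewhere. The sequences below, from RefSeq and written 5′ to 3′ on each gene's strand, are shown because they hold the matches of Irf1 and Stat2, with Irf7 and Ifngr1 as the induced factor with the largest genotype difference and the most abundant receptor, neither of which had a match. Capitals mark the matches. Each sequence is the part of the searched window that lies before the first annotated start in RefSeq or GENCODE, which is 250 bases for Irf1, Stat2 and Ifngr1 and 193 bases for Irf7. They cover chr11:53769764-53770013 (plus) for Irf1, chr10:128270248-128270497 (plus) for Stat2, chr7:141266482-141266674 (minus) for Irf7 and chr10:19591699-19591948 (plus) for Ifngr1.
Irf1: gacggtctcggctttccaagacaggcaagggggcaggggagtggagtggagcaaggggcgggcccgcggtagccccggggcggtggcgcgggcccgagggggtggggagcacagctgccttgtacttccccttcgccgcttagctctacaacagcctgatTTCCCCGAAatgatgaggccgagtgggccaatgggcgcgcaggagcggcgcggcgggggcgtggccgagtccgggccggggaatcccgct
Stat2: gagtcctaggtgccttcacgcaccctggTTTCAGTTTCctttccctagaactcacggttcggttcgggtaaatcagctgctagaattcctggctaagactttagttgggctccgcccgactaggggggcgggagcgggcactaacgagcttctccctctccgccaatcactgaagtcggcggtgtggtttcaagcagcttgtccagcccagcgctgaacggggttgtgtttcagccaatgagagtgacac
Irf7: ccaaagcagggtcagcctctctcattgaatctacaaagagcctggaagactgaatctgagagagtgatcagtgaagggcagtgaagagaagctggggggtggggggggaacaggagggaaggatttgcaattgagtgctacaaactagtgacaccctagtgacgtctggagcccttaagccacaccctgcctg
Ifngr1: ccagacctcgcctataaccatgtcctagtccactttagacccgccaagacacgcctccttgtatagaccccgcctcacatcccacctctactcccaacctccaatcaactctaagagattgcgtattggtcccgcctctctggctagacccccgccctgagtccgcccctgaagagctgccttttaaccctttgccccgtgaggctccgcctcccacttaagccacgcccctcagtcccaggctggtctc

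All members were expressed in MSPCs, and their levels per exon length spanned a wide range. Per kilobase of merged exons, mean levels over the 8 libraries were 184 CPM per kb for Ifngr1, 107 for Ifnar2, 58.5 for Ifngr2, 51.6 for Irf1 and 25.2 for Ifnar1. Those of the other 4 genes were 17.2 CPM per kb for Irf7, 16.8 for Irf9, 12.6 for Stat2 and 10.2 for Irf3. Ifngr1, at 160.2 to 198 CPM per kb, was above 98.8% of the genes tested on this scale, and Irf3, at 9.40 to 11.04 CPM per kb, was above 70.2% of them. Ifngr1 and Ifnar2 each lay above the next gene in every library, as did Irf1 above Ifnar1, while the ranges of Ifngr2 and Irf1 overlapped, and so did those of each neighboring pair from Ifnar1 down to Irf3. The 2 chains of each receptor differed in level: Ifnar2 was above Ifnar1, and Ifngr1 above Ifngr2, in all libraries. With the longest coding transcript as the length, which was chosen after the data were seen, Ifngr1 (247 CPM per kb) and Ifnar2 (117) stayed first and the next, Irf1 (96.0), came before Ifngr2 (59.4), with Irf3 (17.3) and Stat2 (16.9) lowest.

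Receptor mRNA levels were close in the 2 genotypes. In order of replicate 1 to 4, Ifngr1 had 456, 562, 491 and 557 CPM (normalized by TMM) in CTR and 516, 564, 490 and 546 CPM in cKO. The CTR libraries spanned nearly the full cKO range, with means of 517 ± 51.7 and 529 ± 32.6 CPM (SD, n = 4 each). Ifngr2 had 239, 213, 222 and 218 CPM in CTR and 219, 186, 218 and 246 CPM in cKO. Here cKO2 was the lowest and cKO4 the highest library, so that the CTR values lay inside the cKO range. Ifnar1 was at 164, 167, 133 and 146 CPM in CTR and at 138, 143, 145 and 164 CPM in cKO. Its cKO values all fell inside the CTR range. Ifnar2, the chain that occurs in soluble and membrane-bound forms, was at 338, 388, 343 and 335 CPM in CTR and at 340.0, 347, 365 and 397 CPM in cKO. CTR2 stood above the other 3 CTR libraries, and only cKO4 exceeded it.

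The log2 fold changes of cKO over CTR were -0.05 for Ifnar1, 0.05 for Ifnar2, 0.03 for Ifngr1 and -0.04 for Ifngr2, with standard errors of 0.09 to 0.10. Unadjusted p-values from edgeR's quasi-likelihood test were 0.674, 0.632, 0.745 and 0.709 in the same order, and all adjusted p-values were 0.999 (Benjamini-Hochberg over the 14598 genes tested). The 95% intervals of the difference were -17.5% to 13.9% for Ifnar1, -10.5% to 19.1% for Ifnar2, -12.3% to 19.4% for Ifngr1 and -16.8% to 13.8% for Ifngr2. With 4 libraries a group, changes of a receptor gene within these bounds remain possible. Irf3, the factor that nucleic acid sensors activate, was at 38.003, 34.5, 32.4 and 37.1 CPM in CTR and at 33.3, 35.6, 35.7 and 33.7 CPM in cKO. The cKO values lay inside the CTR range, and Irf3 had the smallest relative spread of the 9 genes, with an SD of 5.49% of its mean over the 8 libraries. Its log2 fold change was -0.04 (standard error 0.11, edgeR unadjusted p = 0.739), with an interval of -17.5% to 15.2%.

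**Figure D1:**
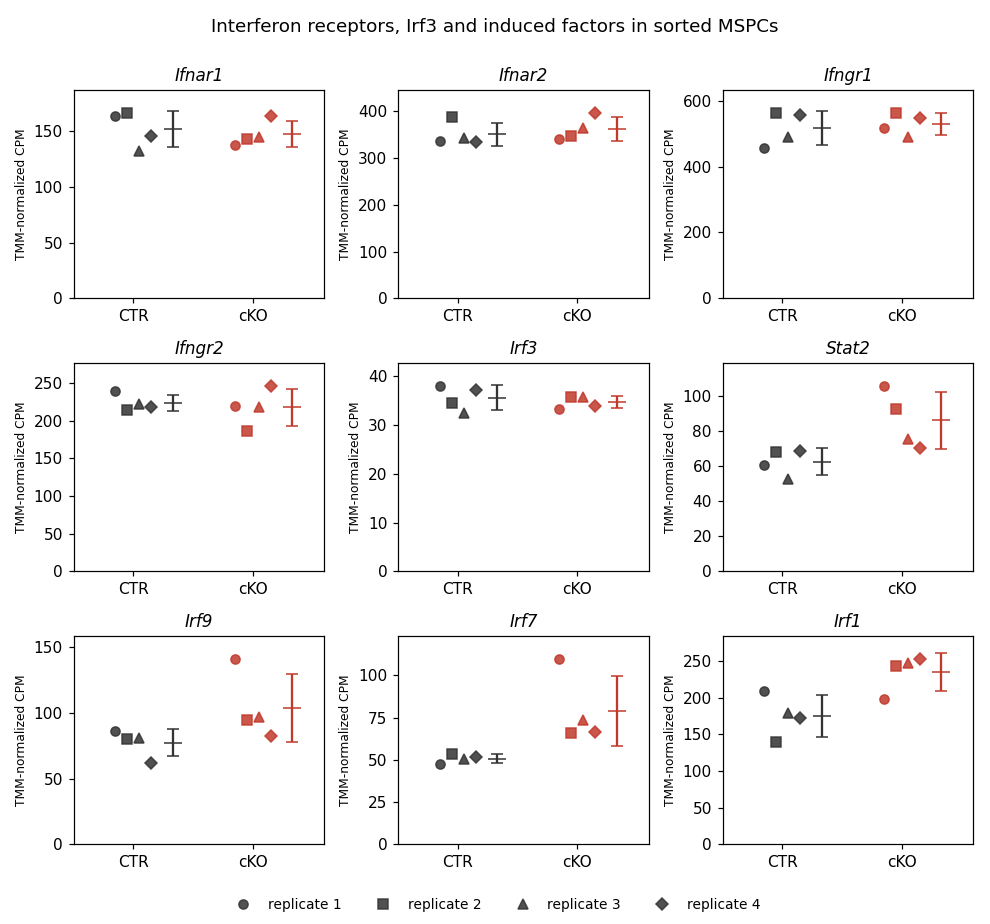
TMM-normalized CPM (y axis, from 0, one scale per gene) of the 9 genes in each CTR (dark) and cKO (red) library, with the replicate number as the symbol and the mean ± SD of 4 libraries beside the points. The genotypes overlap for the 4 receptors and Irf3, all cKO points of Stat2 and Irf7 lie above the CTR points, and cKO1 is the highest point for Stat2, Irf9 and Irf7.

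The 4 induced factors had higher mean levels in cKO MSPCs, by 34.2% to 55.5%. Irf7, which amplifies type I interferon production in infected cells, was at 47.6, 53.4, 50.6 and 51.7 CPM in CTR and at 109.9, 66.0, 73.7 and 66.5 CPM in cKO. Every cKO library was above every CTR library, and cKO1 stood far above the other 3, while the CTR values were close together (50.8 ± 2.46 CPM, against 79.0 ± 20.9 in cKO, SD, n = 4 each). Irf7 had a log2 fold change of 0.64 (standard error 0.16, edgeR unadjusted p = 0.00294, adjusted p = 0.999), with an interval of 20.8% to 100.1%. By unadjusted p-value it ranked number 37 among the genes tested. Stat2, the ISGF3 subunit that carries the transactivation domain, was at 60.6, 68.5, 52.6 and 69.0 CPM in CTR and at 106, 92.7, 75.7 and 70.4 CPM in cKO. The groups did not overlap, although cKO4 was only just above CTR4. Stat2 had a log2 fold change of 0.46 (standard error 0.15, edgeR unadjusted p = 0.0116, adjusted p = 0.999), with an interval of 9.22% to 73.3%.

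Irf9, the DNA-binding subunit of ISGF3, was at 86.0, 80.2, 81.3 and 62.3 CPM in CTR and at 141, 94.5, 97.3 and 82.8 CPM in cKO. The groups overlapped because cKO4 lay below CTR1, and cKO1 was again the highest library. Irf9 had a log2 fold change of 0.42 (standard error 0.17, edgeR unadjusted p = 0.0327, adjusted p = 0.999), with an interval of 2.99% to 75.0%. Without cKO1 the Irf9 value was 0.24 (edgeR unadjusted p = 0.106), and it also missed an unadjusted 0.05 without CTR2 or CTR4. Irf1, a factor at the promoters of antigen presentation and other interferon gamma target genes, was at 209, 139.8, 179 and 172 CPM in CTR and at 198, 243, 247 and 253 CPM in cKO. The cKO2, cKO3 and cKO4 libraries were above all CTR libraries, but cKO1, the highest for the other 3 induced factors, was the lowest cKO library for Irf1 and lay below CTR1. Irf1 had a log2 fold change of 0.43 (standard error 0.13, edgeR unadjusted p = 0.00972, adjusted p = 0.999), with an interval of 9.28% to 65.2%.

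None of the 9 members passed an adjusted p of 0.05, as 0 of the 14598 genes tested did (0%). At an unadjusted p under 0.05 there were 4 of 9, all higher in cKO, beside 646 of all genes tested (4.43%), of which 343 were higher in cKO (2.35%). All cKO libraries were above all CTR libraries for 2 of the 9 members and for 195 of all genes (1.34%). Two-sided exact permutation tests on single genes gave p = 0.0286 for Stat2 and Irf7, the smallest p that 4 libraries against 4 allow, and p = 0.0571 for Irf1 and Irf9. For the receptors and Irf3 the exact permutation p-values were between 0.486 and 0.743. DESeq2 called 23 genes (Wald test, 0.158%) or 22 genes (likelihood ratio test, 0.151%) at an adjusted 0.05, and 0 of the 9 members were among them.

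**Figure D2:**
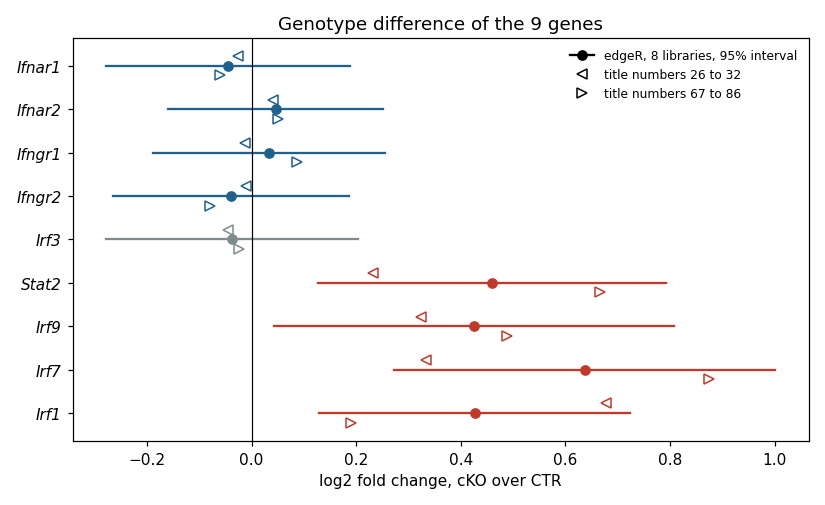
Log2 fold change of cKO over CTR (x axis) for each gene, as the edgeR estimate over 8 libraries with its 95% interval (circle and bar) and as the difference within title numbers 26 to 32 and 67 to 86 (open triangles, 2 libraries of each genotype in each). The intervals of the receptors and Irf3 include 0, and those of the 4 induced factors lie above 0, with the lowest bound at 0.04 for Irf9.

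Set side by side, the 4 receptors had log2 fold changes from -0.05 to 0.05 (median -0.003) and the 4 induced factors from 0.42 to 0.64 (median 0.44), against a median of -0.001 over all genes tested. Summed over genes, receptor mRNA was 1243 CPM in CTR and 1256 CPM in cKO, and induced factor mRNA was 366 and 504 CPM. In each library the mean log2 level of the induced factors, centered on the mean of each gene, was compared with that of the receptors. The difference between the 2 classes was -0.16, -0.33, -0.19 and -0.26 in CTR1 to CTR4 and 0.55, 0.25, 0.21 and -0.06 in cKO1 to cKO4. In cKO4 the receptors were the highest of all libraries (0.13) and the induced factors the lowest of the cKO libraries (0.07). No test was made of the difference between the classes, since the genes in them were chosen with results known.

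**Figure D3:**
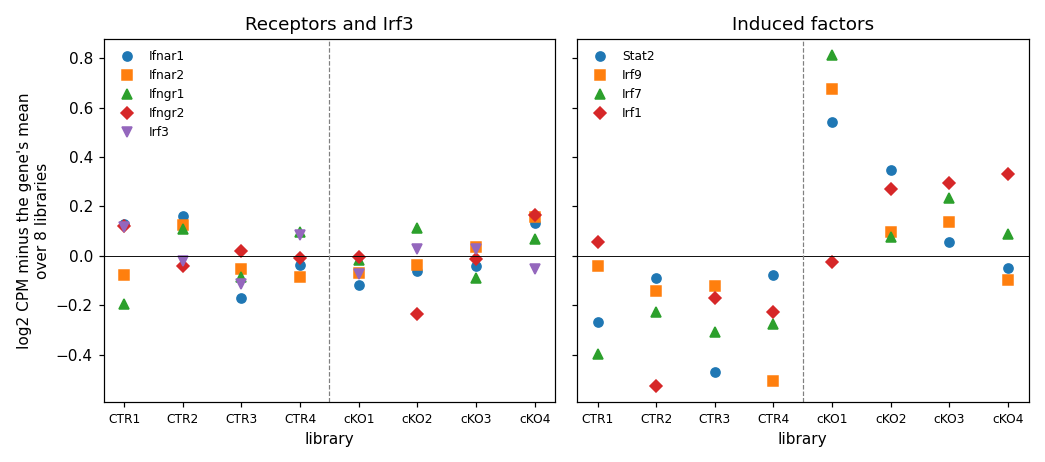
Log2 CPM of each gene minus its own mean over the 8 libraries (y axis) by library (x axis), for the receptors and Irf3 (left) and the induced factors (right). Receptor points stay between -0.25 and 0.18 in all libraries, and the induced factors are highest in cKO1 except for Irf1, which is highest in cKO4.

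The induced factors did not all follow the same libraries. Within title numbers 26 to 32 the cKO minus CTR difference in mean log2 CPM was 0.68 for Irf1, 0.33 for Irf7, 0.32 for Irf9 and 0.23 for Stat2. Within 67 to 86 the order differed, with 0.88 for Irf7, 0.67 for Stat2, 0.49 for Irf9 and 0.19 for Irf1. All 8 of these differences were above 0. The test of the difference between the 2 number ranges (interaction term in edgeR) gave an unadjusted p of 0.0655 for Irf7, 0.0765 for Irf1, 0.165 for Stat2 and 0.518 for Irf9, with adjusted p-values of 1.00, so that none was past 0.05. Receptor differences within the ranges were between -0.08 and 0.09. Adding the number range as a term left 0 genes called by edgeR and the same 4 members at an unadjusted p under 0.05 (5.41% of all genes).

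Patterns over libraries were compared with those of the 9397 genes whose mean reached 10 CPM, by the root mean square distance of centered log2 CPM over the 8 libraries. The nearest to Stat2 were Epc1, a chromatin regulator (distance 0.11), Pigp, a subunit of GPI anchor synthesis (0.11), and Fyco1, an adaptor of vesicle transport (0.11), where the median gene was at 0.37. For Irf1 they were the kinase Stk38 (0.11), BC049715 (0.12) and the kinase Dyrk1b (0.13), with the median at 0.35. For Irf7 they were Haus4, a subunit of the spindle complex augmin (0.13), Abhd15 (0.16) and Oasl2, an interferon-stimulated gene of the OAS family (0.16), with the median at 0.43. For Irf9 they were Epor, the erythropoietin receptor (0.06), the deadenylase Parn (0.11) and the nuclear pore protein Nup88 (0.11), with the median at 0.37. None of the 4 induced factors was among the 3 nearest genes of another.

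Counts of genes upstream of the members at an unadjusted p under 0.05 are set beside 4.43% of all genes tested. None of the 20 ligand genes (type I interferons, Ifng, Ifnl2 and Ifnl3) had a count in any library, and the limit that a count of 0 allows was 0.0785 to 0.0966 CPM per library. Near-identical copies among the Ifna genes can share reads that the counting drops, so that these zeros are uncertain for the Ifna genes. Of 19 sensors and adaptors that lead to interferon production, 16 were tested, and Ifih1, an RNA sensor, was the 1 gene at an unadjusted p under 0.05. It was at 51.2 ± 5.29 CPM in CTR, against 65.5 ± 11.998 CPM in cKO (SD, n = 4 each, log2 fold change 0.35, edgeR unadjusted p = 0.0309). The others ranged from -0.39 for Ticam1, the adaptor of TLR3, to 0.42 for Dhx58, a regulator of RNA sensing, and the list's median was -0.05. Among the other IRFs, 3 of 5 were tested and 0 had an unadjusted p under 0.05. Irf8, better known from myeloid cells, was at 27.9, 39.8, 28.5 and 42.9 CPM in CTR and 9.84, 22.5, 14.9 and 40.7 CPM in cKO (log2 fold change -0.66, standard error 0.38, edgeR unadjusted p = 0.110). Irf2, which can compete with IRF1, had a log2 fold change of 0.24 (edgeR unadjusted p = 0.0690).

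Il10rb, between Ifnar2 and Ifnar1 on chromosome 16, was at 186, 198, 195 and 222 CPM in CTR and 87.3, 191, 242 and 94.9 CPM in cKO. The low values of cKO1 and cKO4 were not seen in the neighboring receptor genes, and Il10rb had a log2 fold change of -0.38 (standard error 0.29, edgeR unadjusted p = 0.222). Gm21970 reaches from within Ifnar2 into Il10rb on the same strand, so that counts there depend on how shared reads were assigned. The other chain of the interferon lambda receptor, Ifnlr1, was listed at 0 in all libraries.

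Of the JAK kinases and other STATs, 8 of 9 were tested. The lowest value of the list was -0.10 for Jak1, the kinase bound to IFNAR2 and IFNGR1, and the median was -0.002. Of 12 inhibitors of the pathway, Ptpn11, the phosphatase SHP2, was the 1 gene at an unadjusted p under 0.05 (4.43% of all genes). Ptpn11 was at 63.1 ± 7.92 CPM in CTR, against 51.4 ± 4.93 CPM in cKO (SD, n = 4 each, log2 fold change -0.30, edgeR unadjusted p = 0.0342). Usp18, which is induced by interferon and blocks IFNAR2 signaling, had the highest value of that list (0.49, edgeR unadjusted p = 0.0780) and Cish the lowest (-0.78, edgeR unadjusted p = 0.208), with a median of -0.02.

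Downstream of the members, genes under ISGF3 and interferon gamma control were mostly higher in cKO. Of 18 ISGF3 targets tested, 16 had a positive log2 fold change (49.8% of all genes did) and the median was 0.36. An unadjusted p under 0.05 was reached by 6, all higher. Of all genes tested, 4.43% reached it, and 2.35% did so with a higher level in cKO. The 6 were Rsad2 (1.01), Ifit3 (0.92), Ifit1 (0.92), Cmpk2 (0.79), Oasl2 (0.44) and Ifi44 (0.39). Their edgeR unadjusted p-values ran from 0.00704 for Ifit3 to 0.0436 for Rsad2. Oasl1, a member of the OAS family, was lowest (-0.44, edgeR unadjusted p = 0.105). Rsad2, which encodes the antiviral enzyme viperin, was low, at 3.68 ± 2.28 CPM in CTR, against 7.40 ± 1.00 CPM in cKO (SD, n = 4 each), and cKO1 carried the highest Ifit1 value, 269.9 CPM against 72.5 to 137 CPM in the other cKO libraries. Without cKO1 the median of the ISGF3 targets was 0.20 with 2 at an unadjusted p under 0.05, and without CTR2 or CTR4 there were 3. Reads of Ifit3 can be split with its near-identical neighbor Ifit3b.

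Of 15 interferon gamma targets tested, 14 had a positive log2 fold change and the median was 0.38. An unadjusted p under 0.05 was reached by 6, all higher, beside 4.43% of all genes tested (2.35% higher in cKO). They included the immunity-related GTPases Iigp1 (0.54), Igtp (0.49), Irgm2 (0.45) and Irgm1 (0.43). The others were the peptide transporter Tap1 (0.39) and the guanylate-binding protein Gbp3 (0.38). The edgeR unadjusted p-values of the 6 ran from 0.0122 for Tap1 to 0.0482 for Iigp1. Iigp1 was the most abundant of the 6, at 527 ± 137 CPM in CTR, against 766 ± 227 CPM in cKO (SD, n = 4 each). Tap1 was at 100.1, 100.5, 84.5 and 106 CPM in CTR and 112, 159, 122 and 120.1 CPM in cKO. It was the 1 gene of the list whose groups did not overlap. Among all genes tested, 1.34% had every cKO library above every CTR library. Cxcl10, a chemokine, was lowest (-0.06, edgeR unadjusted p = 0.849). Leaving out a library moved the count of 6 to 1 without cKO2, 2 without CTR4 and 3 without CTR2 or without cKO1, and the median stayed between 0.28 and 0.44. Within title numbers 26 to 32 and 67 to 86 the medians were 0.25 and 0.42 for the ISGF3 targets and 0.42 and 0.30 for the interferon gamma targets, a difference that was not tested. None of the listed genes passed an adjusted p of 0.05. Both lists were chosen with earlier results of these libraries known. Like the leukocyte and erythroid markers, both lists had a higher mean summed level in cKO. CTR4 had the lowest sum for the ISGF3 targets (611 CPM) and the interferon gamma targets (6512 CPM). It was also lowest for the leukocyte markers (30.5 CPM) and the erythroid markers (59.7 CPM). The highest library differed between the lists. The ISGF3 targets were highest in cKO1 (1301 CPM) and the interferon gamma targets in cKO4 (8597 CPM). The leukocyte markers were highest in cKO2 (95.9 CPM) and the erythroid markers in cKO3 (236 CPM). How these levels relate was not tested.

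**Figure D4:**
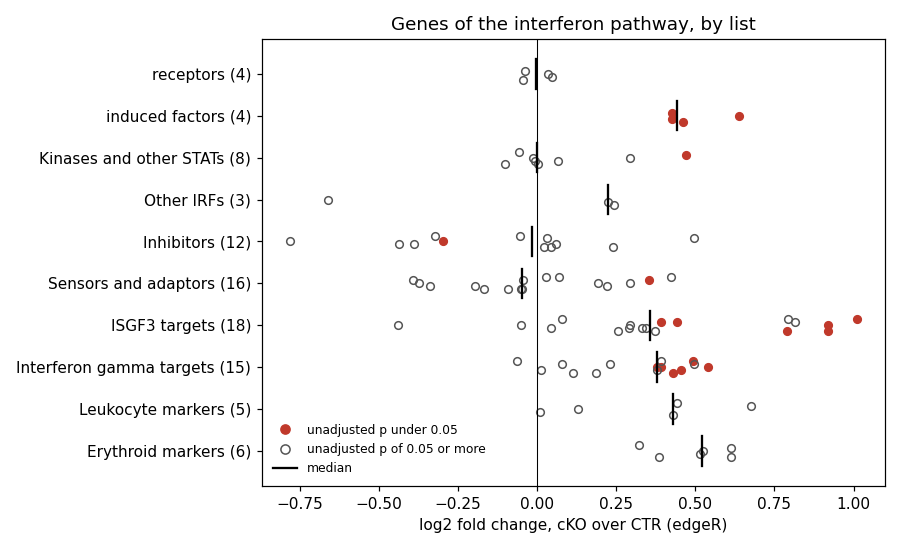
Log2 fold change of cKO over CTR (x axis) for every tested gene of each list (number of genes in brackets), with filled red points for an unadjusted p under 0.05 in edgeR and a black bar at the list's median. The medians are near 0 for the receptors, kinases, inhibitors and sensors, 0.44 for the induced factors, 0.36 for the ISGF3 targets, 0.38 for the interferon gamma targets, 0.43 for 5 leukocyte markers and 0.52 for 6 erythroid markers.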

How the data were processed

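RNA sequencing was performed on MSPCs of 4 CTR and 4 cKO mice, which the labels list as biological replicates. According to the methods and labels, the authors trimmed paired-end reads, aligned them to GRCm38 (mm10) with HISAT2 and counted them per gene with HTSeq, with versions not given in the sources used here, and deposited raw counts of 52636 genes without normalization. Of these genes, 52403 had a symbol for their Ensembl identifier once the version was dropped. Coordinates and lengths are those of GENCODE M21 on GRCm38, a release other than the one the methods name.

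Library sizes were scaled by TMM. Genes without a 0 in any library, 14598 in all, entered edgeR 4.0.16's quasi-likelihood test (glmQLFit, then glmQLFTest, in R 4.3.3) with no covariate, 8 libraries and Benjamini-Hochberg adjustment over all of them and a threshold of 0.05. CPM refer to the total count times the TMM factor, and log2 CPM used a prior count of 2. Intervals are 95% intervals of the edgeR estimate. Exact permutation tests ran through all 70 ways to split the libraries 4 against 4. The scripts were checked on simulated data. A shared replicate number was not taken as a pairing.

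The members and lists were chosen with earlier results of these data known. All members were named, and from each list genes at an unadjusted p under 0.05 and those with the highest and lowest log2 fold change, as well as the 3 nearest genes of each induced factor. Some listed genes are not reported here. Il10rb, Ifnlr1, Tek, Cd3e and Ptprc were added for their level or position. Alternatives were other scalings and filters, DESeq2 1.42.0, limma-voom (limma 3.58.1), the title number range or replicate number as a term, and each library left out in turn. Low values in the deposited table favored odd numbers, and they were used as they stand.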

Additional observations from a re-analysis of the deposited data

Results flagged for a closer look

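The Ifnar2 level of CTR2 stood apart from the other CTR libraries. It was at 388 CPM, against 335 to 343 CPM in CTR1, CTR3 and CTR4, and its gap to the nearest library was 0.855 of the range of the group, above the critical value of Dixon's test for 4 values. Each of the 9 genes was examined in both genotypes, 18 groups in all, of which chance gives about 0.9. Without CTR2 the log2 fold change of Ifnar2 was 0.09 (edgeR unadjusted p = 0.365).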

How the results depend on the processing

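The count of members past the adjusted threshold was 0 in edgeR, in both DESeq2 tests, in limma-voom and in every other alternative run. The lowest adjusted p of a member was 0.105, for Irf7 when DESeq2's likelihood ratio test included the title number range. Stat2, Irf1 and Irf7 had an unadjusted p under 0.05 in all 19 settings and Irf9 in 16 of 19, so that 3 to 4 members did when any 1 library was left out. Over these fits the log2 fold change was 0.43 to 0.71 for Irf7, 0.34 to 0.55 for Stat2, 0.33 to 0.52 for Irf1 and 0.24 to 0.52 for Irf9. Of the receptors, 3 changed sign over the same fits, from -0.022 without CTR1 to 0.0702 without CTR2 for Ifngr1, from -0.105 without cKO4 to 0.0266 without cKO2 for Ifngr2, and from -0.00144 without cKO4 to 0.0922 without CTR2 for Ifnar2, while Ifnar1 stayed between -0.11 and -0.00416. Over all genes, 0 passed in edgeR, 1 with filterByExpr, 1 without a filter, 23 with DESeq2's Wald test, 22 with its likelihood ratio test and 47 once that test included the title number range. With the title number range as a term, 5.41% of all genes tested had an unadjusted p under 0.05. The count at that threshold was 1 for the other IRFs, 2 for the inhibitors and 2 for the sensors. It was 9 of 18 for the ISGF3 targets and 6 of 15 for the interferon gamma targets. With each library left out in turn this count was 0 to 1 for the kinases and other STATs, for the other IRFs and for the lambda receptor, 0 to 2 for the inhibitors, 0 to 3 for the sensors, 2 to 8 for the ISGF3 targets and 1 to 7 for the interferon gamma targets. The cause of these shifts was not tested. With the replicate number as a block, 0 genes passed, 812 had an unadjusted p under 0.05, and the same 4 members did. Deviations of same-numbered libraries correlated at 0.131, 0.176, 0.0844 and 0.0572. Replicates 1, 2 and 3 of one genotype were closest to the same number in the other, and replicate 4 was closest to replicate 2. The labels do not say whether a shared number stands for a pair, and it was not taken as one. With 4 libraries a group, receptor differences of under about 20% could not be resolved.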
